A study of Homo sapiens with 3 samples.

Results

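The zinc finger genes of chromosome 19 with a ZNF number were described in OCI-Ly10 cells, an established human line of activated B cell-like diffuse large B cell lymphoma. Members were the protein-coding genes on chromosome 19 whose GENCODE release 29 symbol is ZNF followed by a digit, and no expression value entered this choice. The annotation lists 249 such genes, of which 207 were among the 15808 genes of the deposited count table. The other 42 were not in that table and were not analysed here. All 3 RNA sequencing libraries belong to 1 labelled group, OCI-Ly10 treated with MZ1 for 6 h. MZ1 is a small molecule that brings BET bromodomain proteins to the VHL ubiquitin ligase and so causes their degradation. Cells without MZ1 were not analysed here, and nothing below is an effect of the compound. Separate cultures are not stated for the replicates, so p-values measure the spread between these libraries only, which may be technical.

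Most genes of this family encode proteins that bind DNA through a row of C2H2 zinc fingers. Many also carry an N-terminal KRAB domain, which binds the scaffold protein TRIM28 (KAP1) and through it the histone methyltransferase SETDB1, heterochromatin proteins and the NuRD deacetylase complex. Their best known targets are transposable elements, which are covered by methylated histone H3 lysine 9 as a result. The genes arose by repeated local duplication and lie in clusters along human chromosome 19.

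The promoters are shown first, because members of 1 cluster differed in whether any read was counted. The 250 bases before the RefSeq start are given 5′ to 3′ on the gene's strand (RefSeq, GRCh38.p14), with CG dinucleotides in capitals. Of the 187 measured members with a promoter in that table, 44 had a stretch that touches no GENCODE exon of either strand. ZNF264 and ZNF543 had the highest mean levels among those 44. ZNF418 was the closest member to ZNF264, among those 44 and in the same group of neighbours, with no count in any library. ZNF14 was the like neighbour of ZNF101.
ZNF264: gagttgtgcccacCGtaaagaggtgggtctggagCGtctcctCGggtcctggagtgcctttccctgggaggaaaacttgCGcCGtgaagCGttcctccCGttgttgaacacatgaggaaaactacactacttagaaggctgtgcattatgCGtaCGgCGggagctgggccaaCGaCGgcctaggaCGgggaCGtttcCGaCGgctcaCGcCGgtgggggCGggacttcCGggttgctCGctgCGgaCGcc
ZNF543: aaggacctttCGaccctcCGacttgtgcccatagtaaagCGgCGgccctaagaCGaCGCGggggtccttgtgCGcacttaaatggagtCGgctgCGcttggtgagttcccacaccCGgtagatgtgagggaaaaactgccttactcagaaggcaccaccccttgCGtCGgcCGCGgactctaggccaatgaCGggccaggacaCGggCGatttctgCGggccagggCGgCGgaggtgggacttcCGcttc
ZNF418: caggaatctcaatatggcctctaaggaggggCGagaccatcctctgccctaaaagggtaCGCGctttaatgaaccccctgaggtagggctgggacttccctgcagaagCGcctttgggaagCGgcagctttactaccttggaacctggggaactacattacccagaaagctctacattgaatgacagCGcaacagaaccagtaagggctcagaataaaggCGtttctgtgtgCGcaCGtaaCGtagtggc
ZNF14: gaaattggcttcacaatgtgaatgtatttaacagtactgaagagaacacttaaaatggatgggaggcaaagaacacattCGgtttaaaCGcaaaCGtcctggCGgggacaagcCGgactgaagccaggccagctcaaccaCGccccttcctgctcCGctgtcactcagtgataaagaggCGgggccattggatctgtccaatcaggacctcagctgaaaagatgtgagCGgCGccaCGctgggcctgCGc
The stretches are chr19:57191250-57191499 on the plus strand for ZNF264, chr19:57320222-57320471 on the plus strand for ZNF543, chr19:57935403-57935652 on the minus strand for ZNF418 and chr19:19733113-19733362 on the minus strand for ZNF14. They hold 23 CG dinucleotides in ZNF264, 22 in ZNF543, 10 in ZNF418 and 12 in ZNF14. Over larger numbers the difference was smaller. The ratio of observed to expected CG in these 250 bases had a median of 0.76 in the 93 matched members with at least 1 CPM (a gene's count scaled by the effective size of its library) in every library and 0.60 in the 41 matched members with no count. It was highest, at 0.79, in the 53 matched members in between, so it did not rise with the level across the 3 classes. It was 0.82 in 9758 other coding genes of the table. Over the 187 members Spearman's rho of this ratio with the mean log2 level was 0.21, a description of genes that share libraries and differ in base composition.

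A second set of sequences shows how alike some members are, since a read that lies wholly in a stretch shared by both genes of a pair cannot be assigned to 1 gene. Each is 84 bases of coding sequence that start at the second finger of the first gene of a pair, 5′ to 3′ on the coding strand from the GENCODE release 29 transcripts, with mismatches within the pair in capitals.
ZNF587: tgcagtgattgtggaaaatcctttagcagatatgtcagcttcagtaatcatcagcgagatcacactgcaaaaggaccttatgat
ZNF417: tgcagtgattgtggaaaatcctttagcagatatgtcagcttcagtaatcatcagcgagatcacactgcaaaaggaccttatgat
ZNF585A: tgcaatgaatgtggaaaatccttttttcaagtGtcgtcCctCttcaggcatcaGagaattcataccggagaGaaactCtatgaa
ZNF585B: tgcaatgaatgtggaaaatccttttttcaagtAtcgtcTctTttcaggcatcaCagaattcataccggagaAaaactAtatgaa
ZNF587 and ZNF417 had 0 mismatches over this stretch, and ZNF585A and ZNF585B had 6. Over the whole protein the identity was 98.1% for ZNF587 and ZNF417, 94.5% for ZNF585A and ZNF585B and 93.0% for ZNF799 and ZNF443. These are the 3 pairs with the highest identity among measured members with a count and at least 1 finger. Members with no count were not compared.

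The count totals were 5474462, 1441246 and 1314812 in replicates 1, 2 and 3, so 1 count was worth 0.20, 0.629 and 0.767 CPM after TMM scaling (edgeR's trimmed mean of M values). Where no read was counted, a level of up to 0.60, 1.89 and 2.30 CPM is allowed (3 counts in each library), and 1 CPM takes 6, 2 and 2 counts. All 6 B cell markers reported (MS4A1, CD79A, CD79B, CD22, PAX5 and POU2AF1) were at 1 CPM or more in every library, with summed levels of 1775, 1319 and 1985 CPM. MS4A1 and CD79A made up most of each sum. The lowest mean was that of CD22, at 53.4, 10.1 and 5.37 CPM. Of 4 T cell markers only CD2 was in the table, at 7, 0 and 0 counts. Of 4 myeloid markers 3 were in the table, with summed levels of 26.8 to 39.99 CPM, and of 4 markers of stroma and epithelium 2 were, with 19.5 to 50.6 CPM. The highest of these were MPO, at 31.8, 20.1 and 22.2 CPM, and KRT8, at 45.8, 17.6 and 33.8 CPM. CD22 lay below both in replicates 2 and 3 and above both in replicate 1. In bulk RNA, fewer cells that express a gene and less RNA per cell cannot be told apart.

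The family was expressed at low levels. Its 207 measured members had 8979 counts in replicate 1, 3727 in replicate 2 and 2909 in replicate 3. These are 0.164% (0.161% to 0.167%), 0.259% (0.2504% to 0.267%) and 0.221% (0.213% to 0.229%) of the counts of the 3 libraries, with exact Clopper-Pearson 95% intervals that cover counting error only. The share was lowest in replicate 1, and the 3 intervals do not overlap. Of the members 161 had a count in at least 1 library and 46 (22.2%) had none. No count was found for 4.05% of 222 ZNF genes of other chromosomes, 2.96% of 709 other coding genes of chromosome 19 and 2.66% of all 12460 coding genes.

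At 1 CPM or more in all 3 libraries were 97 of the 207 members, or 46.9%, beside 68% of all genes of the table. The same level was reached by 73% of the ZNF genes of other chromosomes, 74.3% of the other coding genes of chromosome 19 and 78% of all coding genes. A mean of 10 CPM or more was reached by 53 members (25.6%), against 43.2% of ZNF genes elsewhere and 57.3% of all coding genes. The median member stood at 1.20, 1.89 and 3.07 CPM in replicates 1, 2 and 3, a mean of 2.05 ± 0.945 CPM (SD, n = 3 libraries). The mean was 1.20 ± 0.371 CPM over the 162 members whose exons overlap no exon of the opposite strand. ZNF genes of other chromosomes had medians of 6.30, 7.23 and 6.90 CPM, and all coding genes had 14.8, 11.9 and 13.0 CPM. The order was the same in every library. It was also the same per kb of merged exon, where the medians were 0.282, 0.442 and 0.730 CPM per kb for members, against 1.20, 1.39 and 1.37 for ZNF genes elsewhere and 2.71, 2.27 and 2.46 for all coding genes. The order of members held between libraries, with Spearman's rho of 0.91, 0.93 and 0.91 over 207 genes for replicates 1 and 2, 1 and 3, and 2 and 3. This is a description across genes, which are not replicates.

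The levels changed along the chromosome in blocks. Members were divided into 16 position groups wherever neighbouring members start more than 1 Mb apart. In the group nearest the end of the long arm (group 16, chr19:55476332-58474017 by gene starts), 37 of 55 measured members (67.3%) were at 1 CPM or more in every library. Their medians were 5.80, 8.17 and 9.21 CPM. In group 5, on the short arm next to the centromere (chr19:19668796-24033405), 6 of 26 measured members reached that level and 12 had no count. In group 9, on the long arm (chr19:36182060-37735833), 5 of 24 did and 12 had no count. The median member of groups 5 and 9 was at 0 CPM in each of the 3 libraries. Group 15 (chr19:51571298-53519527) lay between, with 16 of 35 members at that level and medians of 1.00, 3.14 and 3.07 CPM. Of the remaining groups with at least 10 members, group 2 (chr19:7069444-9751993) had 8 of 13, group 3 (chr19:11483427-12610918) had 8 of 19 and group 12 (chr19:43525497-45071500) had 8 of 17. Other measured coding genes start within these spans too, except that of group 5. The same level was reached by 11 of 21 such genes in group 16, 1 of 4 in group 9 and 2 of 4 in group 15. It was reached by 13 of 25 in group 2, 2 of 3 in group 3 and 13 of 14 in group 12. Group 10 holds ZNF546, ZNF780B and ZNF780A, and all 3 were at 1 CPM or more in every library.

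**Figure D1:**
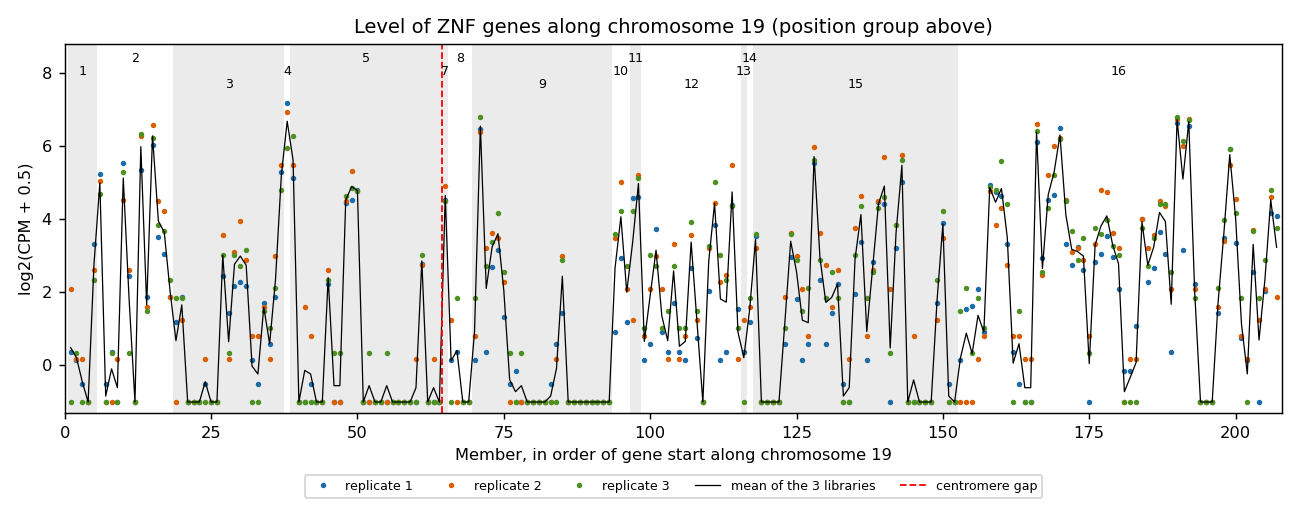
Level of each of the 207 measured members, as log2(CPM + 0.5), in order of gene start. Points are the 3 libraries, the line joins the means, alternate shading and the numbers above mark position groups, and the dashed line marks the gap between the arms. Groups 5 and 9 hold long stretches at the floor of the axis, and group 16 holds the longest stretch of members above it.

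**Figure D2:**
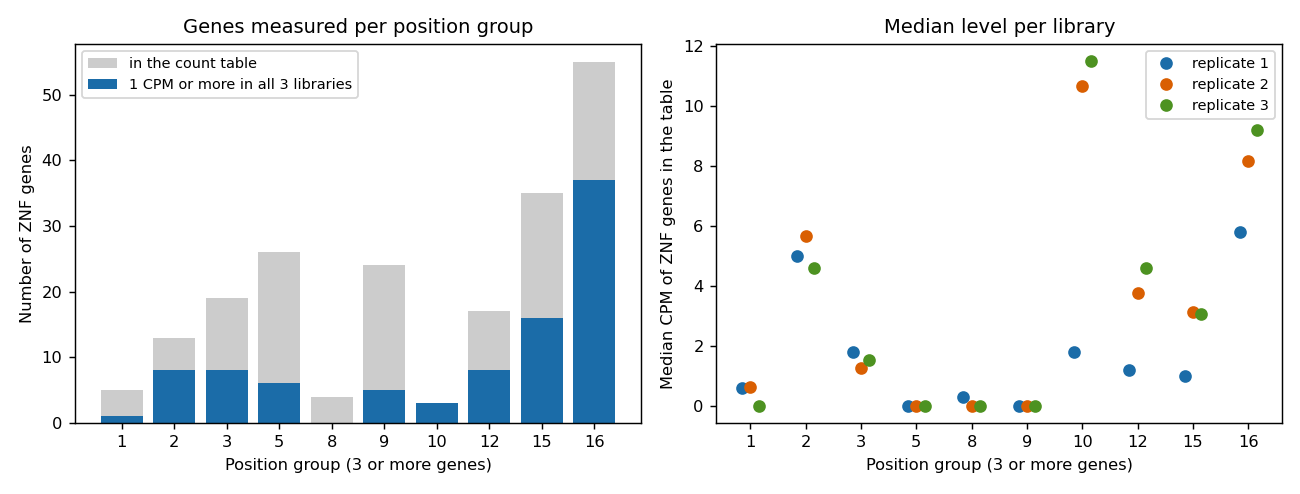
The 10 position groups with at least 3 members. Left: measured members (grey) and those at 1 CPM or more in all 3 libraries (blue). Right: median CPM of the measured members, a point for each library. Group 16 had 37 of 55 members at that level, against 6 of 26 in group 5 and 5 of 24 in group 9, whose medians were 0 CPM in every library.

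Members of the long arm had higher medians than those of the short arm. The 143 measured members of the long arm had medians of 1.80, 3.77 and 3.84 CPM, and the 64 of the short arm had 0.40, 0.629 and 0.767 CPM. The log2 ratio of long over short arm medians was 1.35, 1.92 and 1.77, a mean of 1.68 ± 0.29 (SD, n = 3 libraries). At 1 CPM or more in every library were 73 long arm members (51.0%) and 24 short arm members (37.5%). The ratio was 0.79 on CPM per kb, and among the 124 members with a mean of at least 1 CPM it was 0.18. The short arm medians are worth 2, 1 and 1 counts in replicates 1, 2 and 3.

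Neighbours resembled each other. Over 192 pairs of adjacent measured members within a position group, Spearman's rho of the mean log2 level was 0.51, and it was 0.45, 0.50 and 0.48 in replicates 1, 2 and 3. Over 708 pairs of adjacent other coding genes of chromosome 19 rho was 0.09. Those pairs had no limit on distance and could span whole clusters or the gap between the arms. Ties also differed, since 22.2% of members and 2.96% of the other coding genes had no count. The values for members and for other genes are therefore of unlike sets of pairs. Adjacent members differed by a median of 1.21 on the log2 scale, and all 21321 pairs of members by 2.28. These are descriptions of genes that share libraries, annotation and, in many pairs, sequence. The share of sequence found in other genes had a rho of 0.07 with the level over 207 members. This value concerns the levels of single members. The part of shared sequence in the likeness of neighbours was not tested.

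The blocks are best seen as runs of adjacent measured members on 1 side of a mean of 1 CPM. The longest run below it, in group 5, goes from ZNF708 to ZNF91 over 2.01 Mb. It holds 18 annotated members, of which 10 were measured, and these had 0, 1 and 2 counts together in replicates 1, 2 and 3. No other measured coding gene starts within it. ZNF91, which represses SVA retrotransposons in primates, had 0, 1 and 0 counts, and its 31 fingers were the most of any measured member. The 3 measured members just before this run were expressed. ZNF430 had 106, 35 and 32 counts, ZNF714 had 112, 63 and 37, and ZNF431 had 138, 43 and 35, while the next measured member, ZNF708, had 0, 0 and 0. ZNF431 was at 27.6, 27.0 and 26.8 CPM, with no difference between libraries beyond counting error (adjusted p = 0.988, chi-square test with Benjamini-Hochberg adjustment over all genes). ZNF675, which stands alone after the run, had 6.40, 6.29 and 7.67 CPM. These members were chosen for their place beside the run after their values were seen.

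At the start of group 5, ZNF101 had 174, 70 and 100 counts and its neighbour ZNF14 had 0, 0 and 0. In group 9 the 9 measured members from ZNF461 to ZNF585B had 9, 1 and 2 counts together, and the 8 from ZNF527 to ZNF573 had 0, 0 and 0. ZNF383, which lies between these runs, had 11, 12 and 9 counts, or 2.20, 7.54 and 6.90 CPM. Its exons overlap those of ZNF585B on the opposite strand by 228 bases. The run before them, from ZNF565 to ZNF382, had 527, 192 and 199 counts over 6 members, most of them from ZNF146. Runs on the other side of the threshold were as long. ZNF551 to ZNF417 in group 16 held 10 measured members with 1256, 577 and 478 counts over 0.218 Mb, and the 10 from ZNF615 to ZNF528 in group 15 had 354, 186 and 122. Also in group 16, the 9 measured members from ZNF264 to ZNF749 had 1219, 514 and 354 counts. Among the 3 next to ZNF417 on its far side, ZNF418, ZNF256 and ZNF606, no count was found in any library.

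Only 3 members had a mean above 100 CPM. ZNF333, the only member of its position group (chr19:14689801-14733746, plus strand), had 144, 121 and 61.4 CPM in replicates 1, 2 and 3, a mean of 109 ± 42.8 CPM. It was highest in replicate 1 and lowest in replicate 3, and the libraries differed beyond counting noise (adjusted p = 2.44e-12, chi-square test with Benjamini-Hochberg adjustment). Without replicate 3 the adjusted p was 0.055. ZNF587B (chr19:57819741-57846238, plus strand) had 98.8, 107 and 110 CPM, a mean of 106 ± 6.08 CPM. ZNF587 (chr19:57849857-57865112, plus strand) had 93.2, 106 and 106 CPM, a mean of 102 ± 7.43 CPM. Neither differed between libraries beyond counting noise, with adjusted p = 0.444 for ZNF587B and 0.259 for ZNF587 in the chi-square test. With libraries scaled by column totals instead, both passed the threshold (adjusted p = 0.00619 for ZNF587B and 0.00141 for ZNF587). ZNF587, with its near copy ZNF417, is known to repress human endogenous retroviruses of the HERVK group. ZNF417 itself had 4.20, 3.77 and 3.07 CPM. Since 30.5% of the 50-base words of ZNF417 transcripts also occur in ZNF587 transcripts, and 24.1% of those of ZNF587B occur in other genes, the split of reads between these copies is uncertain.

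ZNF146 (chr19:36214602-36238774, plus strand), known as OZF and built almost wholly of zinc fingers without a KRAB domain, had 87.6, 83.6 and 110 CPM. It was highest in replicate 3, at the edge of the threshold (adjusted p = 0.044, chi-square test), and it missed it without replicate 1 (0.162), without replicate 3 (0.707), with DESeq2 size factors (0.077), without the count filter (0.057) and with libraries thinned to equal depth (0.062). ZNF264 had 69.0, 96.8 and 85.2 CPM and was lowest in replicate 1. ZNF304, which with TRIM28 takes part in silencing of tumour suppressor genes in colorectal cancer cells, had 89.6, 74.8 and 72.9 CPM. The 3 values of ZNF304 did not differ beyond counting noise at this depth (adjusted p = 0.094, chi-square test). ZNF121 had 65.4, 95.5 and 74.4 CPM, and ZNF266 had 40.2, 77.3 and 80.5 CPM, so replicate 1 was again the lowest for both. ZNF543 had 24.8, 63.5 and 36.8 CPM and stood highest in replicate 2. ZNF544 had 60.2, 44.0 and 59.8 CPM and ZNF766 had 45.8, 62.9 and 49.1 CPM. ZNF160, described as a repressor of the TLR4 gene, had 32.2, 54.1 and 49.1 CPM. ZNF101 had 34.8, 44.0 and 76.7 CPM and was highest in replicate 3, and ZNF791 had 38.8, 44.6 and 27.6 CPM.

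**Figure D3:**
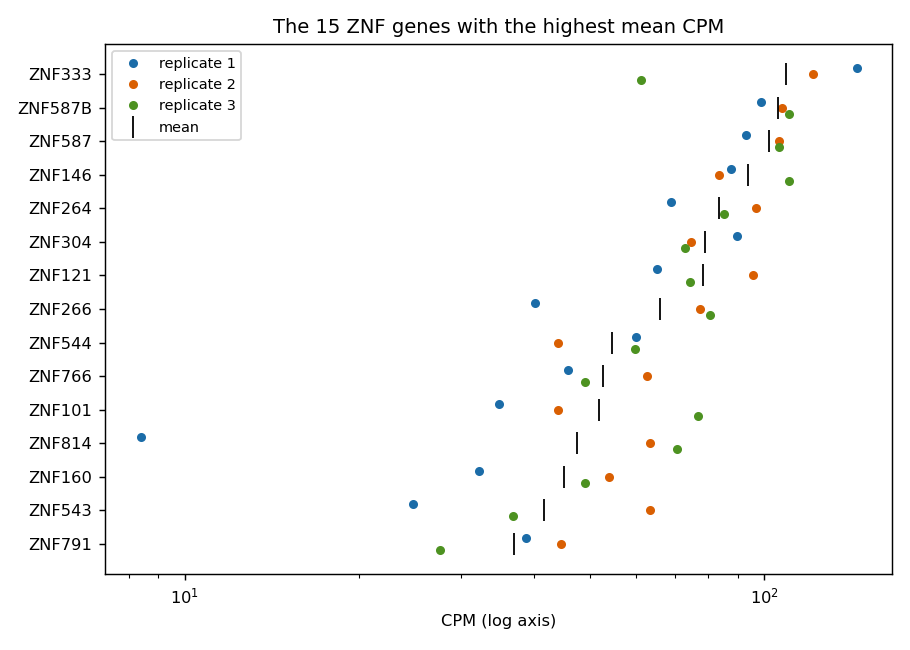
CPM (log axis) of the 15 members with the highest mean, a point for each library and a bar for the mean. ZNF587B and ZNF587 lie closest together across libraries, ZNF333 is highest in replicate 1 (144 CPM), and ZNF814 lies at 8.40 CPM in replicate 1, against 63.5 and 70.6 CPM in replicates 2 and 3.

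Levels of different genes can be set beside each other only per length. By mean CPM per kb of merged exon the highest were ZNF587B (24.1 ± 1.39), ZNF146 (22.6 ± 3.50), ZNF304 (17.2 ± 1.98), ZNF587 (13.8 ± 1.01), ZNF581 (13.0 ± 4.40) and ZNF266 (12.2 ± 4.15 CPM per kb, SD, n = 3 libraries each). ZNF587B and ZNF146 do not differ beyond their spread, nor do ZNF587, ZNF581 and ZNF266. ZNF333, first by CPM, had 9.39 ± 3.69 CPM per kb. ZNF581, a short gene with 4 fingers, had 26.4, 13.8 and 27.6 CPM and shares 18.4% of its 50-base words with its neighbour ZNF580.

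The highest members of 3 other groups were lower. In group 1 it was ZNF77, at 9.60, 5.66 and 4.60 CPM. In group 8 it was ZNF181, at 4, 0 and 4 counts, and no member of that group was at 1 CPM or more in every library. In group 12 it was ZNF180, at 20.6, 44.6 and 19.9 CPM, with replicate 2 above the others. Between the near-identical pairs, ZNF799 had 14, 4 and 3 counts and ZNF443 had 5, 1 and 2, while ZNF585A had 1, 0 and 0 and ZNF585B had 5, 1 and 0.

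Every gene whose mean count was 10 or more was tested for differences between the 3 libraries (chi-square, counts against those of equal levels). Of the 84 members tested 45 varied at an adjusted p under 0.05, which is 53.6% beside 67.2% of all 10016 genes tested. The test calls more where counts are high. At a mean count of 10 to 50, 27 of 54 members varied beside 49.7% of all genes. Where the mean count was 50 or more, 18 of 30 did (60.0%) beside 80.3%. Scaled by column totals, 59 of 84 members varied (70.2%) beside 67.6% of all genes, so which of these shares is higher turns on the scaling.

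Replicate 1 gave members lower relative levels than the other libraries. Of the 53 members with a mean of at least 10 CPM, 31 (58.5%) were lowest in replicate 1, beside 34% of all 7510 genes of that level. Only 9 (17.0%) were highest there, beside 43.1%, while 27 were highest in replicate 2 (28.7% of all genes) and 17 in replicate 3 (28.2%). Lowest in replicate 2 were 12 members, beside 40.5%, and lowest in replicate 3 were 10, beside 25.5%. Both lowest in replicate 1 and past the chi-square test were 25 members (47.2%), beside 26.4% of all genes, and highest there and past it were 4 (ZNF317, ZNF333, ZNF446 and ZNF574), beside 35.1%. The median member differed by 0.45 on the log2 scale between replicates 2 and 1, by 0.34 between 3 and 1 and by -0.03 between 3 and 2. Over all genes of that level the medians were -0.14, -0.07 and 0.10. ZNF genes of other chromosomes gave 0.33, 0.28 and -0.01, while the other coding genes of chromosome 19 gave -1.20, -0.19 and 0.96. Between replicates 2 and 1, and 3 and 1, members and ZNF genes elsewhere had medians above 0. The other coding genes of chromosome 19 had medians below 0 there. Between 3 and 2 the medians of both ZNF sets were near 0, with 22 of 53 members and 47 of 96 ZNF genes elsewhere above 0. This is a description with no test.

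The GC content of transcripts moved with these differences. The median longest transcript of a member held 42.3% GC, against 45.0% for ZNF genes elsewhere, 47.9% for all coding genes and 59.7% for other coding genes of chromosome 19. Over all genes of at least 10 CPM, the median difference between replicates 2 and 1 went with GC, at 0.32 in the lowest of 8 equal bins and -1.37 in the highest. In the 4 lower bins (GC up to 46.4%), 39 members differed by a median of 0.54 between replicates 2 and 1, beside 0.21 for all genes, and by 0.32 between 3 and 1, beside 0.02. In the 4 upper bins, 14 members differed by -0.13 between replicates 2 and 1, beside -0.60 for all genes, and by 0.51 between 3 and 1, beside -0.19. For both differences the median member lay above that of all genes in the lower and in the upper bins. Each set of 4 bins spans a wide range of GC. Between replicates 3 and 2 the medians were -0.08 beside -0.11 in the lower bins and 0.40 beside 0.41 in the upper bins. The part of GC, depth or library preparation in these differences was not tested.

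**Figure D4:**
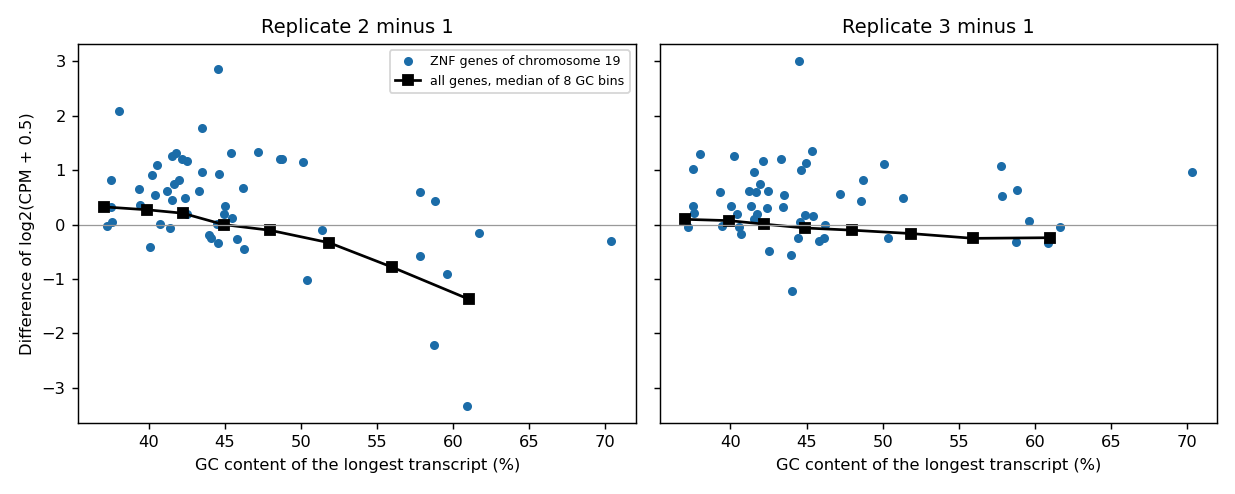
Difference of log2(CPM + 0.5) between replicates 2 and 1 (left) and 3 and 1 (right) against transcript GC. Points are the 53 members with a mean of at least 10 CPM. Squares are medians of 8 equal bins over all genes of that level with a known transcript GC. Most members lie above the line of all genes, with medians of 0.45 and 0.34. The squares slope down with GC on the left, to -1.37 in the highest bin.

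The widest spread among members of at least 10 CPM was that of ZNF574 and ZNF814. ZNF574, a gene of 60.9% GC, had 23.4, 1.89 and 18.4 CPM, so replicate 2 stood far below the others with 3 counts (adjusted p = 7.60e-07, chi-square test). Without replicate 2 the adjusted p was 0.399. ZNF446, of 58.7% GC, was likewise lowest in replicate 2, at 16.4, 3.14 and 13.0 CPM, and without that library its adjusted p in the chi-square test was 0.508. Its exons overlap those of SLC27A5 on the opposite strand by 1131 bases, and SLC27A5 had 28.8, 2.51 and 11.5 CPM. ZNF446 also shares 26.1% of its 50-base words with the overlapping ZNF324. ZNF444, of 57.8% GC, had 9.60, 6.29 and 20.7 CPM. With the opposite order, ZNF780B, of 38.0% GC, had 7.20, 32.1 and 18.4 CPM and ZNF773, of 43.5% GC, had 7.80, 27.7 and 11.5 CPM, both highest in replicate 2.

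ZNF814 (chr19:57848731-57889074, minus strand) had 8.40, 63.5 and 70.6 CPM, so replicate 1 lay far below the other libraries (adjusted p = 3.82e-45, chi-square test). Between replicates 2 and 3 alone the adjusted p was 0.856. This gene lies across ZNF587, which is on the plus strand, and their exons overlap by 2445 bases. ZNF587 had 93.2, 106 and 106 CPM in the same libraries. The strand setting of library and counting is not known here, and without strand the reads of the overlap cannot be told apart. Exons of 45 of the 207 members (21.7%) overlap exons of the opposite strand, beside 22.1% of ZNF genes elsewhere and 32.2% of all genes. Among the 15 members with the highest means these also include ZNF146 (446 bases shared with ZNF565), ZNF544 (414 with AC020915.3), ZNF304 (271 with AC005261.2) and ZNF333 (12 with ADGRE3), whose partners averaged 1.64, 4.91, 2.12 and 3.81 CPM. Among those tested, 16 of 24 such members varied between libraries, and 29 of 60 members with no such overlap did, beside 70.6% of all genes with an overlap and 65.5% of those with none. The part of strand in the levels of ZNF814 was not tested.

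**Figure D5:**
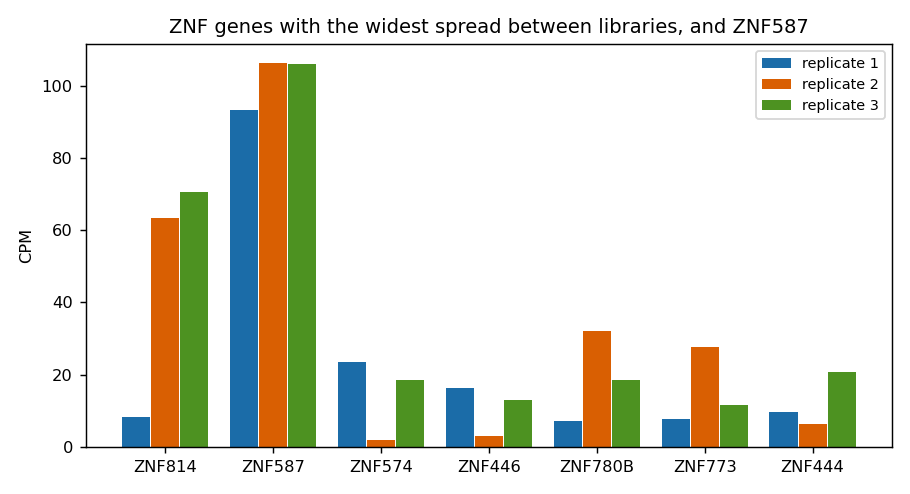
CPM in the 3 libraries for the 6 members of at least 10 CPM whose log2 values had the largest SD, and for ZNF587. ZNF814 is low in replicate 1 alone, ZNF574 and ZNF446 are low in replicate 2, ZNF780B and ZNF773 are high in replicate 2, and ZNF587, which overlaps ZNF814 on the opposite strand, is level.

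Members were also grouped by protein features. A pattern search of the translated coding sequences found a KRAB box before the first finger in 212 of the 249 annotated members, and it may miss divergent ones. Of the 174 measured members with the pattern 79 (45.4%) were at 1 CPM or more in every library and 44 had no count. Of the 33 without it 18 (54.5%) were, and 2 had no count. Median levels were 0.90, 2.20 and 2.30 CPM with the pattern and 2.60, 1.89 and 3.84 CPM without it, so neither kind was the higher in every library by CPM. Per kb of merged exon the medians were 0.201, 0.415 and 0.443 CPM per kb with the pattern and 0.949, 0.583 and 0.956 without it, so members without the pattern were higher in each library per length. Transcripts of the KRAB kind held a median of 41.8% GC, and the others 60.7%. The median number of fingers was 12 in members at 1 CPM or more in every library and 13.5 in those with no count. Spearman's rho of the mean log2 level was -0.17 with the number of fingers, 0.27 with GC and 0.14 with exon length over 207 members, all weak.

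The promoters were searched for 4 motifs, which the choice of genes did not use. The core of the site of ETS factors, a family that includes GABPA and ELF1, was searched as CCGGAA on both strands of the 250 bases before the RefSeq start. It was found in 88 of the 217 annotated members that matched (40.6%), beside 14.5% of all 35116 RefSeq promoters, 25.1% of the other coding genes of the table and 40.5% of 185 ZNF genes of other chromosomes. With promoters limited to a CG ratio of at least 0.6, it was in 38.4% of 151 members, beside 29.1% of the other coding genes. The motif was in 45.2% of members at 1 CPM or more in every library, in 34.0% of those in between, in 34.1% of those with no count and in 46.7% of those not in the table. Of the stretches printed above only that of ZNF264 holds it. The TATA box letters TATAAA, on the gene's strand, were in 1.38% of members, beside 6.80% of all promoters, 3.66% of the other coding genes of the table and 2.16% of ZNF genes of other chromosomes. The E-box CACGTG was in 3.69% of members, beside 6.34%, 8.93% and 4.86% in the same 3 sets. The cyclic AMP response element TGACGTCA was in 2.30% of members, beside 1.65%, 2.87% and 4.32%, so it was more frequent than in all promoters and less frequent than in the other coding genes and in ZNF genes elsewhere. A match of letters is a description and shows no binding.

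The machinery that KRAB domains recruit was expressed throughout. All 22 reported genes of a list of this machinery were in the table and none fell under 1 CPM in a library. That level was reached in every library by 68% of all genes and 78% of all coding genes. Their medians were 104, 111 and 127 CPM, and 15 of the 22 varied between libraries beside 67.2% of all genes. All but SETDB1, DNMT3A and SUV39H1 had a mean count of at least 50, where 80.3% of all genes varied. Exons of 8 of the 22 overlap exons of the opposite strand, beside 32.2% of all genes. TRIM28, the scaffold, starts at position 58544091 of chromosome 19, just beyond the last member. It had 2133, 325 and 1131 CPM, with replicate 2 lowest. Its transcript GC of 63.7% lies in the highest of the 8 bins. The median gene of that bin differed by -1.37 on the log2 scale between replicates 2 and 1. The part of GC in the levels of TRIM28 was not tested. SETDB1, the methyltransferase, had 15.4, 23.3 and 25.3 CPM, and its cofactor ATF7IP had 121, 99.3 and 57.5 CPM. Of the heterochromatin proteins, CBX5 averaged 635 ± 175 CPM, CBX3 257 ± 80.7 CPM and CBX1 82.4 ± 6.58 CPM. Of the NuRD subunits, CHD4 averaged 715 ± 147 CPM, CHD3 241 ± 61.3 CPM, HDAC1 226 ± 16.05 CPM and HDAC2 110 ± 21.0 CPM. The HUSH complex, which maintains silencing at such targets, was represented by MPHOSPH8 at 145 ± 50.1 CPM, PPHLN1 at 219 ± 14.2 CPM and FAM208A at 74.1 ± 11.8 CPM, with its partner MORC2 at 83.2 ± 35.3 CPM (SD, n = 3 libraries each). DNA methyltransferase DNMT1 averaged 253 ± 24.5 CPM, its partner UHRF1 27.0 ± 3.97 CPM and DNMT3A 15.9 ± 3.76 CPM. The SUMO protein gene SUMO2 averaged 173 ± 31.8 CPM, and the remodeller SMARCAD1 46.8 ± 16.3 CPM. The other histone H3 lysine 9 methyltransferases, EHMT1, EHMT2 and SUV39H1, averaged 106 ± 3.52, 20.6 ± 2.88 and 11.3 ± 6.37 CPM.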

How the data were processed

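The data are RNA sequencing of 3 libraries in 1 group. Raw read counts per Ensembl gene are as deposited. A table of log2 CPM by the authors, whose values show an offset of 0.452 CPM, served as an alternative. The submitters' processing notes name STAR, edgeR and hg38. The counter, the strand setting and the annotation release: not given in the sources used here. Per the labels, RNA was taken with Trizol and prepared with an Illumina TruSeq kit.

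IDs without version were matched to GENCODE release 29 (15668 of 15808). Counts were scaled with TMM (factors 0.914, 1.10 and 0.991; edgeR 4.0.16, R 4.3.3). The log2 scale is that of CPM + 0.5, which understates differences of low genes. Genes whose mean count was 10 or more had a chi-square test of the 3 counts (Poisson, effective library sizes, scipy 1.17.1). Its p-values were adjusted by Benjamini-Hochberg over all genes at 0.05. The test was also run on simulated counts from the Poisson model that it assumes, which cannot show its behaviour under wider spread. It compares libraries, not conditions. Arms were divided at the widest gap between gene starts. GC is that of the longest transcript. Fingers, KRAB boxes and identity (global alignment, over the shorter protein; Biopython 1.88) came from the coding sequences.

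Members named are the 15 with the highest mean CPM, the highest of each position group of at least 3, the 6 of at least 10 CPM whose log2 values had the largest SD, the 6 highest per kb and the 3 most identical pairs, and other members were chosen after their values were seen. In all, 1 gene of the corepressor list and 1 B cell marker are not reported here. Members and lists were chosen with earlier results of these data known. Alternatives were DESeq2 1.42.0 size factors, column totals, each replicate left out, other count and CPM thresholds, thinning to equal depth, the deposited log2 values and a wider symbol rule.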

Additional observations from a re-analysis of the deposited data

How the results depend on the processing

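No paired analysis was possible because the 3 libraries form 1 group. The number of members that varied between libraries (45 of 84) was 15 to 42 with a replicate left out. It was 15 of 76 without replicate 1 (all genes 33.8%), 24 of 88 without replicate 2 (45.2%) and 42 of 87 without replicate 3 (56.2%). It was 18 of 30 at a mean count of at least 50, 29 of 66 with libraries thinned to equal depth, and 29 of 60 among members with no exon overlap on the opposite strand, an alternative chosen after seeing the data. The number at 1 CPM or more in every library stayed within 1.5 times under each alternative run. The mean of the median CPM was 7.55 among members of at least 1 CPM and 1.20 among members with no such overlap. The median difference of replicates 2 and 1 was 0.72 with column totals, which moved that of all genes to 0.13 from -0.14. That of replicates 3 and 1 was 0.58 among members of at least 1 CPM and 0.19 in the deposited log2 values, and that of 3 and 2 was -0.28 in those values. The long over short arm ratio was 0.79 per kb and 0.18 among members of at least 1 CPM. Mean levels of the 29 named members moved by over 1 SD for 14 with the deposited log2 values and for 2 (ZNF587 and ZNF587B) without replicate 1. With the deposited values all 29 were higher, such as ZNF333 at 151 against 109 CPM and ZNF417 at 5.04 against 3.68 CPM. The 14 are those whose SD was small beside this common rise. Over all alternatives, chi-square calls of named members were lost in 26 cases and gained in 6. Depth limits low members most, since 1 CPM takes 2 counts in replicates 2 and 3.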
